A study of Mus musculus with 2 samples.

Results

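The Hox genes of the Hoxa, Hoxb, Hoxc and Hoxd clusters were followed in captured methylated DNA of mouse testis. The 38 members were chosen by name, and each was read over its gene span with 1 kb added on each side, in the 100 bp windows that the authors' table lists. A window shared by neighbouring members was counted once, for the shortest gene that holds it or otherwise the nearest. The members held 895 of the 2537435 listed windows, beside 21887 protein-coding genes read in the same way. The series compared 1 library of wildtype C57BL/6 testis with 1 library of C57BL/6 testis labelled Kaiso KO, from a generation 3 male labelled sterile. Genomic DNA was sheared and fragments holding methylated CpGs were bound to the methyl-CpG-binding domain of MBD2 and sequenced, so a count is a measure of captured methylated DNA. The description of the knockout sample contradicts its genotype label by calling the testis wildtype, and each statement on the knockout library rests on the genotype label. Neither the allele, the age of the animals nor whether animals were pooled is given in the sources used here.

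Hox genes encode homeodomain transcription factors that set the identity of body segments along the head-to-tail axis and of the limb and genital primordia. They lie in clusters in which gene order follows the anterior limit of expression, and genes at the same position in different clusters form paralogue groups that descend from a common ancestor. Their CpG-rich promoters are typically kept free of DNA methylation and are held silent by Polycomb complexes in cells that do not use them. Kaiso, the product of Zbtb33, is a zinc finger protein that binds methylated CpG pairs and a short unmethylated sequence.

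There were 87710791 reads in the wildtype library and 98549116 in that of the knockout, and ratios are given as knockout over wildtype per library read. Each genotype had 1 library, so no difference below has a replicate check, no test was run and no p-value is given. Intervals are exact Clopper-Pearson 95% intervals that cover counting error only, with window counts divided by 4 to approximate fragments. The table lists windows with a deposited p-value below 0.05, so a window that is not listed was not shown to be equal, and listed windows are pushed away from a ratio of 1. A gene needed 20 fragments over both libraries for a call. It was called higher when its ratio reached 2 and lower when its ratio was 0.5 or less, in each case with 1 outside the interval. The targeted gene Zbtb33 (X, 38189793 to 38197046) had 303 wildtype and 83 knockout counts in 16 listed windows, a log2 ratio of -2.04 (-2.80 to -1.31), which is captured DNA and shows neither the deletion nor the loss of its RNA.

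Most Hox genes had more captured methylated DNA in the knockout library than in the wildtype library. Of the 38 members, 37 had a listed window and 35 had the 20 fragments needed for a call. Of these 35, 32 (91.4%) were called higher, whereas 9.64% of 19225 protein-coding genes were. These shares are not like for like, because a window with few wildtype reads is listed only when it is higher in the knockout library. Windows with at most 2 wildtype counts made up 52.1% of Hox windows. Among all listed windows, 1.24% had 0 wildtype counts and 2.41% had 1 or 2. Only Hoxd8 was called lower, where 5.64% of protein-coding genes were, and Hoxb7 and Hoxb9 were called neither. Hoxa9 and Hoxa13 had too few fragments, and Hoxc11 had no listed window. The median log2 ratio of the 35 members was 2.42, with Hoxc13 and Hoxd10 at their lower bounds, beside 0.31 over all protein-coding genes, whose 90th percentile was 0.99. A log2 ratio of 2 or more was reached by 22 members and one of 4 or more by 6. Summed over all members, 7145 wildtype and 32693 knockout window counts gave a log2 ratio of 2.03 (1.95 to 2.10), a 4.07-fold difference. Other scalings of the libraries shifted all log2 ratios by between -0.66 and 0.13, and the number of members called higher under them lay between 27 and 32. In bulk testis, a change in methylation per cell and a change in the share of cells that carry it cannot be told apart.

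**Figure D1:**
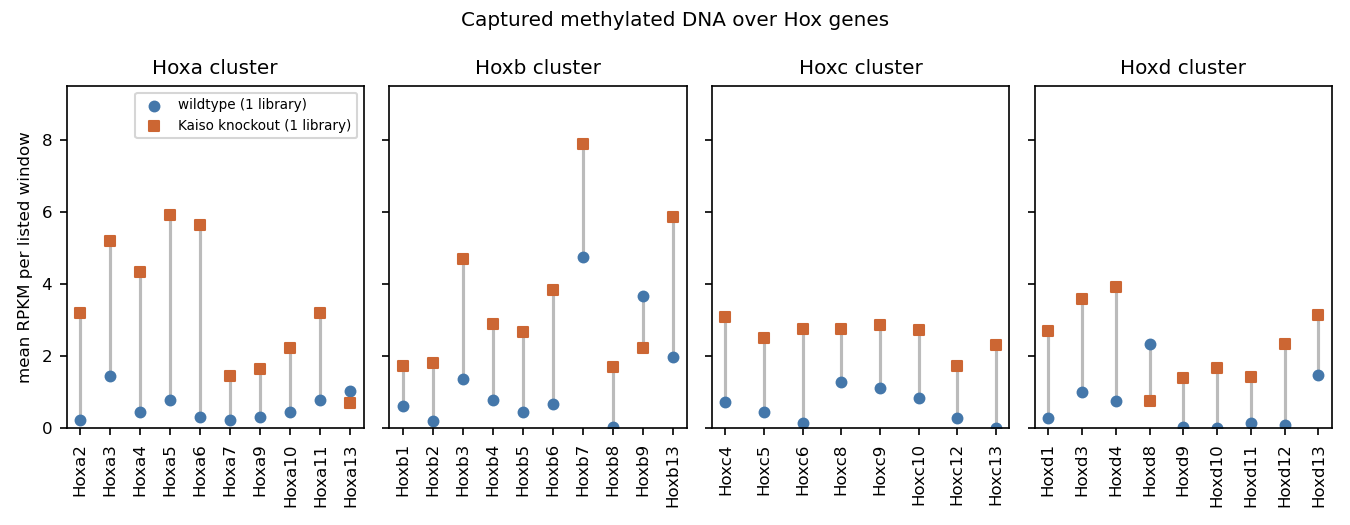
Captured methylated DNA over the Hox genes, as the mean RPKM (reads per kilobase of window, scaled to library reads) of the listed windows of each gene, in the wildtype library (blue circles) and the Kaiso knockout library (orange squares), with genes in paralogue order. The knockout value lies above the wildtype value for every gene shown except Hoxa13, Hoxb9 and Hoxd8.

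Hox windows had little captured DNA in wildtype and an intermediate amount in the knockout library. The median Hox window held 2 wildtype and 29 knockout counts, whereas the medians over all listed windows were 39 and 40. In RPKM the median Hox window stood at 0.228 in wildtype and 2.94 in the knockout library, beside 4.45 and 4.06 over all listed windows. The authors' relative methylation score, which corrects for CpG density on a scale that is not stated, had medians of 0.0063 and 0.062 in Hox windows and of 0.186 and 0.153 in all listed windows. The Hox median of the knockout library thus lay below the median of all listed windows in either library. Higher counts in the knockout library were found in 859 of the 895 windows (96.0%, against 56.5% of all listed windows). A ratio of 2 or more was found in 788 (88.0%, against 17.6%), and at or below a ratio of 0.5 were 32 (3.58%, against 38.0%). In 215 windows (24.0%, against 1.24%) no wildtype read was counted at all, and no Hox window lacked a knockout read. In the 466 Hox windows with at most 2 wildtype counts the direction was fixed by the listing.

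Loci whose methylation differs between germ cells and somatic cells are given here because testis holds both, and many but not all were called higher at their ends. Read at gene ends, 1 kb on each side of both ends, 15 of 20 germline genes that are methylated in somatic tissues were called higher and 0 lower, beside 22.5% higher and 13.3% lower among 14846 protein-coding genes. Their summed counts were 4603 in wildtype and 18605 in the knockout library, and their median log2 ratio was 2.35. Among them were Dazl, an RNA-binding protein of germ cells, with 70 wildtype and 996 knockout counts, and Sycp3, a component of the synaptonemal complex, with 109 and 1190. Of 13 maternally methylated imprinted genes with enough fragments at their ends, 12 were called higher, with a median of 2.60. All 15 genes of that list summed to 1706 and 9980 counts. Of 5 genes at paternally methylated loci, 2 were called higher, with 1554 and 4434 counts and a median of 0.80. The gene ends read here need not hold the regions of these loci that sperm carries methylated. Only Snrpn, with no listed window at its ends, was at 0 in both libraries. The same reading at gene ends gave 24 of 29 Hox members higher and 1 lower, with a median of 2.51. Over whole gene spans the calls were 5 of 20, 10 of 15 and 0 of 5, with medians of 0.57, 1.43 and 0.63. The part that the mix of germ cells and somatic cells plays in the Hox result was not tested.

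Promoter sequence is shown for the members on which the comparison turns. RefSeq promoter entries (GRCm38.p6, 250 bases before to 50 after the start) existed for 22 members, in 24 entries with 4 to 45 CpGs each and a median of 14.5, beside 7 over all promoters. Only 9 of the 24 entries overlapped a listed window. Hoxd12 and Hoxb8, and Hoxa6 which had no listed window there, are shown because the lower interval bound of the gene was the farthest from 0 in its cluster. Hoxd8 is shown because it was the member called lower. Hoxa5 and Hoxc4 were added after their values had been seen, because their promoters held wildtype reads and many knockout reads. Capitals mark the CpGs, which are the sites of methylation.
Hoxd12 (chr2:74674763-74675062, plus strand): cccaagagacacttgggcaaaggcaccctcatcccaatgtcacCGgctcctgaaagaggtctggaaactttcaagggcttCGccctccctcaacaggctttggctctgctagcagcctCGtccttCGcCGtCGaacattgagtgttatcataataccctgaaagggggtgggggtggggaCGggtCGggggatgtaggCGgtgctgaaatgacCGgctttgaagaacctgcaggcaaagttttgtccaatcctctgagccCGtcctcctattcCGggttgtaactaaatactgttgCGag
Hoxb8 (chr11:96281655-96281954, plus strand): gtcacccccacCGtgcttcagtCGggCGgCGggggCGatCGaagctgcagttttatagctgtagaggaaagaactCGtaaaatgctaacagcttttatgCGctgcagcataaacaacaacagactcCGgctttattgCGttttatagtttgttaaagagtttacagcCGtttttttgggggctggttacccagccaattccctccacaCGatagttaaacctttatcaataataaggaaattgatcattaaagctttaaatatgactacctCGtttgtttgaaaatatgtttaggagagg
Hoxa5 (chr6:52204538-52204837, minus strand): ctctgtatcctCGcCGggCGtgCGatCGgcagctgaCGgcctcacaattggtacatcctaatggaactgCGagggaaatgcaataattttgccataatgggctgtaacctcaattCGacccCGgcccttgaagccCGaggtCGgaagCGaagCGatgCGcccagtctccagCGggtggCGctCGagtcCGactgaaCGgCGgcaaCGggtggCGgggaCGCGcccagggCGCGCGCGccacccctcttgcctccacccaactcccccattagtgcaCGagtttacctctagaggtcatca
Hoxc4 (chr15:103034145-103034444, plus strand): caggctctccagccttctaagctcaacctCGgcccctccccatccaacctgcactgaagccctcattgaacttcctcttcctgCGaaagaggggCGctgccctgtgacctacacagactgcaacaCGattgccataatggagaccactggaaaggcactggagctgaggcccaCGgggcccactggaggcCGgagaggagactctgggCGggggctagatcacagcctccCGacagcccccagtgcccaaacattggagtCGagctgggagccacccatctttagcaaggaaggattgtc
Hoxa6 (chr6:52208623-52208922, minus strand): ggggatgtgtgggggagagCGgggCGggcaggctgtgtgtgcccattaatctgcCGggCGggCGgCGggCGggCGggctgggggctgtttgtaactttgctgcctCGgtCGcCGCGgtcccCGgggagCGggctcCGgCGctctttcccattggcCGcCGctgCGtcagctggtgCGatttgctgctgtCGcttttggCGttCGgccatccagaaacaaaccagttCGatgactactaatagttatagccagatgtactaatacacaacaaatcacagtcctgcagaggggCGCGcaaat
Hoxd8 (chr2:74704365-74704664, plus strand): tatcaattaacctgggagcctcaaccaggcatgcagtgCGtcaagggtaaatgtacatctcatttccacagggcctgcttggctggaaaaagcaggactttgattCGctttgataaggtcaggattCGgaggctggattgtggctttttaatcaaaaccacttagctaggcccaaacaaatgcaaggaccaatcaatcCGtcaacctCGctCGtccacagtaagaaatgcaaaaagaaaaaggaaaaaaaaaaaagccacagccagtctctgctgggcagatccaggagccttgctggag

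In the listed windows of the Hoxd12 and Hoxb8 promoters, methylated DNA was captured in the knockout library and not in the wildtype library. A window with 0 wildtype counts is listed only when it is higher in the knockout library. The direction of the promoters in this paragraph was therefore fixed by the listing. The Hoxd12 promoter, with 13 CpGs, had 4 listed windows with 16, 19, 19 and 20 knockout counts and 0 wildtype counts in each. Against a floor of 3 wildtype fragments the knockout library was at least 5.49-fold higher, a bound without the counting error of the knockout library, with which the log2 interval starts at 1.97. The Hoxb8 promoter, also with 13 CpGs, had 24, 16, 14 and 10 knockout counts and again 0 in wildtype, at least 4.75-fold higher, with a log2 interval from 1.78. Hoxb1 and Hoxb4 showed the same form, with 92 and 70 knockout counts and 0 wildtype counts, at least 6.82-fold and 5.19-fold higher, with log2 intervals from 2.36 and 1.97. A count of 0 over such a short region allows up to 3 fragments, or 12 window counts, so methylation in wildtype was below detection there and was not shown to be absent.

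The Hoxa5 promoter was the most CpG-rich of those shown, with 29 CpGs, and had the most knockout counts of the 9. Its 4 windows held 48, 53, 54 and 54 knockout counts and 1, 1, 2 and 2 wildtype counts, a log2 ratio of 4.95 (2.61 to 7.62). The window in the middle with 53 knockout counts holds 18 CpGs. In the gene sums only the window with 48 knockout counts was counted for Hoxa5, and the others for Hoxa3 or Hoxa6. The Hoxc4 promoter, with 9 CpGs, had 94 knockout and 6 wildtype counts, a log2 ratio of 3.80 (1.41 to 6.54). Hoxa2 had 43 and 4 counts, a log2 ratio of 3.26 (0.51 to 8.72). With at most 2 wildtype counts in each window, the direction of the Hoxa5, Hoxc4 and Hoxa2 promoters was also fixed by the listing. For Hoxa7, with 38 and 7 counts, the log2 ratio was 2.27 and the interval, -0.08 to 5.38, took in 0. The Hoxd4 entry, with 4 CpGs, went the other way, with 52 knockout and 94 wildtype counts and a log2 ratio of -1.02 (-2.15 to -0.02). The promoters of Hoxa6 (26 CpGs), Hoxd8 (6 CpGs) and Hoxa13 (45 CpGs, the most of all) had no listed window. Hoxc13, whose lower bound was the farthest in its cluster, is named only.

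The letters CGCG, a tandem CpG of the kind that Kaiso binds when methylated, were searched in these entries. They stood in 15 of the 24 Hox entries (62.5%) and in 38.0% of all 32851 promoters of the same length. These shares were not matched for CpG number, whose median was 14.5 in the Hox entries and 7 over all promoters. Overlapping matches counted separately, Hoxa13 had 11 and Hoxa5 had 4, while Hoxd12, Hoxb8, Hoxc4 and Hoxd8 had 0. The unmethylated Kaiso site, TCCTGCNA on either strand, stood in 2 Hox entries (8.33%), those of Hoxd9 and Hoxc4, and in 4.96% of all promoters. These matches describe letters in the window and no binding was measured.

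All 4 clusters were higher in the knockout library, with Hoxb the least so. The Hoxa cluster (chromosome 6, 52162417 to 52260880) held 2180 wildtype and 11743 knockout counts in 258 windows, a log2 ratio of 2.26 (2.13 to 2.40). For the Hoxb cluster (chromosome 11, 96194316 to 96368254) the 261 windows held 2633 and 9938 counts, a log2 ratio of 1.75 (1.62 to 1.87). In the Hoxc cluster (chromosome 15, 102921131 to 103036856) there were 943 and 4582 counts in 169 windows, a log2 ratio of 2.11 (1.91 to 2.32). The 207 windows of the Hoxd cluster (chromosome 2, 74668225 to 74765142) held 1389 and 6430 counts, a log2 ratio of 2.04 (1.88 to 2.22). The counting interval of Hoxb ended at 1.87, just below the 1.88 at which that of Hoxd began, and the intervals of Hoxa, Hoxc and Hoxd overlapped. That narrow gap rests on the chosen divisor of 4 and takes in no variation between libraries. The median wildtype window held 2 or 3 counts in each cluster, and the median knockout window 39 in Hoxa, 31 in Hoxb, 27 in Hoxd and 24 in Hoxc. Listed windows covered 31.1% of the member regions in Hoxa, 28.7% in Hoxb, 25.7% in Hoxd and 20.8% in Hoxc, beside 12.1% over protein-coding genes.

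**Figure D2:**
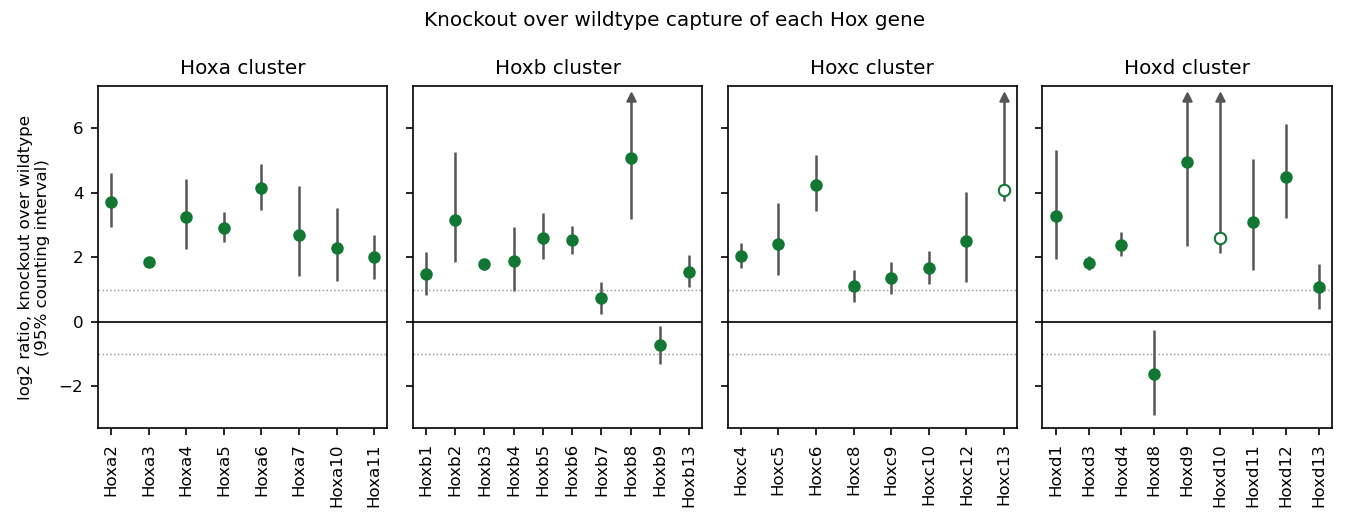
Log2 ratio of knockout over wildtype for each of the 35 Hox genes with at least 20 fragments, in paralogue order within each cluster, with 95% counting intervals and dotted lines at a 2-fold difference in either direction. Open circles are lower bounds for genes without a wildtype read (Hoxc13 and Hoxd10), arrows mark intervals that run past the axis, and Hoxd8 and Hoxb9 lie below 0.

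In the Hoxa cluster all 8 members with enough fragments were called higher, with a median log2 ratio of 2.80. Hoxa2, which patterns the hindbrain and the second pharyngeal arch, had 56 wildtype and 820 knockout counts in 26 windows (52162417 to 52164831), a log2 ratio of 3.70 (2.92 to 4.60). Hoxa3, needed for the thymus and parathyroid, had the most listed windows of any member, 130, with 1652 wildtype and 6656 knockout counts and a log2 ratio of 1.84 (1.69 to 2.00). Its 44009 bp span covers Hoxa4, Hoxa5 and Hoxa6. Windows inside the spans of these genes were taken out of it, while 15 windows in their added 1 kb stayed with Hoxa3. Hoxa4, which patterns cervical vertebrae, had 36 and 385 counts in 9 windows, a log2 ratio of 3.25 (2.26 to 4.42). Hoxa5, which acts in the trachea and lung, had 180 and 1519 counts, a log2 ratio of 2.91 (2.46 to 3.39).

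Hoxa6, a gene of thoracic patterning, had the strongest difference in its cluster by the lower bound. Its 27 windows (gene at 52204858 to 52208672) held 76 wildtype and 1504 knockout counts, a log2 ratio of 4.14 (3.48 to 4.89), and no window held more than 7 wildtype counts. Hoxa7, its neighbour in the thoracic range, had 24 and 173 counts, a log2 ratio of 2.68 (1.43 to 4.20). Towards the posterior end listed windows became sparse. Hoxa10, needed for the uterus and for testis descent, had 36 and 198 counts in 9 windows, a log2 ratio of 2.29 (1.27 to 3.52). Hoxa11, which patterns the forearm, kidney and uterus, had 91 and 409 counts, a log2 ratio of 2.00 (1.32 to 2.70). Hoxa9, a gene of blood progenitors, had 11 and 65 counts in 4 windows, and Hoxa13, which acts in digits and the genital tubercle, 18 and 14 in 2 windows, both too few for a call. The longest stretch without a listed window in the cluster, 10.7 kb from 52224501 to 52235200, runs over parts of Hoxa9 and Hoxa10.

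The Hoxb cluster held both the member with the largest log2 ratio measured and both members that were called neither. Hoxb1, which sets the identity of a hindbrain segment, had 104 wildtype and 324 knockout counts in 19 windows, a log2 ratio of 1.47 (0.82 to 2.17). It was split: 11 of its windows had no wildtype read, while 3 beyond the gene end held 26, 30 and 38 wildtype counts and only 11, 14 and 20 knockout counts. Hoxb2, which acts in the same segment, had 18 and 180 counts, a log2 ratio of 3.15 (1.87 to 5.26). Hoxb3, a hindbrain gene with a span of 96307101 to 96347930, had 1499 and 5780 counts in 125 windows, a log2 ratio of 1.78 (1.61 to 1.95). Hoxb4, known for expanding blood stem cells, had 48 and 199 counts in 7 windows, a log2 ratio of 1.88 (0.96 to 2.94).

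Among the central Hoxb genes the order did not follow position. Hoxb5, which positions the shoulder, had 82 and 552 counts, a log2 ratio of 2.58 (1.94 to 3.37), and its neighbour Hoxb6 had 216 and 1400, a log2 ratio of 2.53 (2.11 to 2.97). Hoxb7 had 208 wildtype and 389 knockout counts in only 5 windows, each with 27 to 56 wildtype counts, a log2 ratio of 0.74 (0.23 to 1.25). Next to it Hoxb8, a gene of myeloid cells and grooming behaviour, had 8 wildtype and 302 knockout counts in 18 windows (gene at 96279401 to 96285325), a log2 ratio of 5.07 (3.18 to 8.15) or 33.6-fold. In 14 of its windows no wildtype read was counted, and the other 4 held 2 each. Hoxb9, which patterns the ribs, had 258 wildtype and 177 knockout counts in 8 windows, a log2 ratio of -0.71 (-1.30 to -0.13), and in 7 of the 8 windows the knockout count was the lower. Hoxb13, a gene of the prostate and tail that stands far from the others, had 192 and 635 counts in 11 windows, a log2 ratio of 1.56 (1.09 to 2.06).

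In the Hoxc cluster, all 8 members with enough fragments were called higher, with a median log2 ratio of 2.24. Hoxc4, an anterior gene of the neck region, had 267 wildtype and 1245 knockout counts in 41 windows, a log2 ratio of 2.05 (1.66 to 2.45). Hoxc5 had 37 and 222, a log2 ratio of 2.42 (1.44 to 3.67). Hoxc6, a gene of the thorax and mammary gland, had 52 and 1092 counts in 40 windows (gene at 102998226 to 103011882), a log2 ratio of 4.22 (3.43 to 5.15), with at most 4 wildtype counts in a window. The 3 genes after it were the least changed of the cluster. Hoxc8, which acts in motor neurons of the forelimb level, had 203 and 488 counts, a log2 ratio of 1.10 (0.61 to 1.59). Hoxc9, which sets thoracic motor neuron identity, had 187 and 535, a log2 ratio of 1.35 (0.85 to 1.85), and Hoxc10, a gene of lumbar motor neurons, 173 and 617, a log2 ratio of 1.67 (1.18 to 2.20). Scaled within CpG classes, Hoxc8 and Hoxc9 stood at 0.77 and 0.85, under the 2-fold line.

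In the listed windows of Hoxc12 and Hoxc13 the wildtype library held few or no counts. These were 9 of the 39 windows of the Hoxc12 region and 10 of the 98 of Hoxc13, and the other windows were not seen. Hoxc13, a regulator of hair and nail keratins (102921131 to 102928814), had 10 adjacent windows from 102926801 to 102927800 with 10 to 35 knockout counts each, 229 in all, and 0 wildtype counts. The knockout library was at least 17.0-fold higher, with a log2 interval from 3.73. Hoxc12, expressed in hair follicles, had 24 and 154 counts in 9 windows, a log2 ratio of 2.51 (1.24 to 4.03). Hoxc11 lies in the longest stretch without a listed window in any cluster, 12.9 kb from 102952801 to 102965700.

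The Hoxd cluster spanned the widest range, from the member called lower to several of the strongest. Hoxd1, which acts in pain-sensing neurons, had 17 wildtype and 187 knockout counts, a log2 ratio of 3.29 (1.94 to 5.32). Hoxd3, a gene of the cervical vertebrae (74711993 to 74748271), had 856 and 3387 counts in 96 windows, a log2 ratio of 1.82 (1.60 to 2.04), and Hoxd4, a hindbrain gene within it, 289 and 1698 in 44 windows, a log2 ratio of 2.39 (2.03 to 2.77). Hoxd8 (74704615 to 74707933) had 82 wildtype and 30 knockout counts, a log2 ratio of -1.62 (-2.88 to -0.25). Its 4 adjacent windows, 74708601 to 74709000, lie past the gene span within the added 1 kb, hold 1 or 2 CpGs each, and had 18 to 22 wildtype and 7 or 8 knockout counts. Without the added 1 kb, 0 members were called lower, and likewise 0 with 8 window counts taken as a fragment.

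The posterior Hoxd genes, which pattern the limb and the genital tubercle, were nearly free of wildtype counts in their listed windows apart from the last. Hoxd9, which acts in the hindlimb and lumbar region, had 4 wildtype and 138 knockout counts in 10 windows, a log2 ratio of 4.94 (2.34 to 10.26). Hoxd10, a gene of lumbar motor neurons, had 0 and 82 counts in 5 windows, at least 6.08-fold higher, with a log2 interval from 2.14. Hoxd11, which patterns the forearm with Hoxa11, had 16 and 154 counts, a log2 ratio of 3.10 (1.61 to 5.03). Hoxd12, a digit gene (74675013 to 74677705), had 20 and 506 counts in 22 windows, a log2 ratio of 4.49 (3.23 to 6.13), and none of its windows held more than 2 wildtype counts. Hoxd13, the main gene of digit formation, had 105 and 248 counts in 8 windows, a log2 ratio of 1.07 (0.40 to 1.81), or 0.68 when scaled within CpG classes.

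Paralogue groups were compared by pooling their windows over the clusters. Group 12 had the highest pooled log2 ratio, 3.74 (2.86 to 4.77), followed by group 2 with 3.59 (2.94 to 4.41) and group 6 with 3.37 (3.05 to 3.71). These 3 intervals overlap. Group 9 had the lowest, 0.82 (0.50 to 1.16), next to group 7 with 1.11 (0.65 to 1.57) and group 8 with 1.32 (0.93 to 1.73). Paralogues did not share a level, though. Within group 8 the log2 ratio ran from -1.62 for Hoxd8 to 5.07 for Hoxb8, and within group 9 from -0.71 for Hoxb9 to 4.94 for Hoxd9. The 3 genes of group 3 lay within 0.063 of each other, from 1.78 to 1.84, and these genes have the longest spans and the most windows.

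Along the clusters, the central genes (paralogues 5 to 8) had the highest pooled ratio. Their log2 ratio was 2.55 (2.37 to 2.73), from 1168 wildtype and 7671 knockout counts. The anterior genes (1 to 4) stood at 1.94 (1.85 to 2.03) with 4842 and 20861 counts, and the posterior genes (9 to 13) at 1.71 (1.51 to 1.90) with 1135 and 4161. Posterior minus anterior was -0.23. Leaving out Hoxa3, Hoxb3 and Hoxd3, which hold most anterior counts, raised the anterior value to 2.42 (2.21 to 2.64) and moved the difference to -0.72, while it was 0.17 among windows with a deposited p-value of at most 0.001. The clusters did not share an order either. Anterior, central and posterior log2 ratios were 2.00, 3.34 and 1.97 in Hoxa, 1.79, 2.19 and 0.68 in Hoxb, and 2.05, 2.46 and 1.83 in Hoxc. In Hoxd the posterior value, 2.79, was above the anterior one, 2.01, and the central value, -1.62, came from Hoxd8 alone. The medians over members were 2.05, 2.58 and 2.29, so by members the posterior genes were not below the anterior ones.

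Wildtype counts varied widely between the Hox windows. In 466 windows (52.1%) the wildtype library held at most 2 counts, and these windows together had 386 wildtype and 12496 knockout counts. A window with so few wildtype reads enters the list only with many knockout reads, so its direction is fixed by the listing. How common such windows were also depends on the listing, because windows low in both libraries are not listed. Of the Hox windows, 24.0% had 0 wildtype counts against 1.24% of all listed windows, and 28.0% had 1 or 2 against 2.41%. Windows with at most 2 wildtype counts formed long runs, in which adjacent windows share reads and are not independent. The longest run, 19 adjacent windows over Hoxd12 (74674601 to 74676500), held 16 wildtype and 470 knockout counts and takes in the promoter printed above. Within the Hoxa3 span a run of 16 windows (52176601 to 52178200) held 8 and 607 counts. Over Hoxc4, 15 windows (103034001 to 103035500) held 9 and 395 counts, and these too take in the printed promoter. In Hoxa5, 10 windows (52202801 to 52203800) held 10 wildtype and 648 knockout counts, with 49 to 75 in each. The window without a wildtype read that had the most knockout counts, 75, lies in Hoxa3 (52170601 to 52170700) and holds 15 CpGs.

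A further 317 windows (35.4%, against 23.1% of all listed windows) held 3 to 19 wildtype counts, and 312 of them were higher in the knockout library. At the low end of this class too the direction was set by the listing, which needs a summed count of at least 10. No lower Hox window held fewer than 13 wildtype counts. Windows with at least 20 wildtype counts numbered 112 (12.5%, against 73.2% of all listed windows) and held 64.6% of the wildtype counts of the family. The knockout count was the higher in 81 of them and the lower in 31. They formed 50 peaks, 18 of them with at least 3 adjacent windows, whose median log2 ratio was 0.65. The tallest lay in Hoxa3 (52179901 to 52180500), with 513 wildtype and 788 knockout counts in 6 windows and a log2 ratio of 0.45. Another in Hoxa3 (52196901 to 52197600) had 437 and 731 counts, a log2 ratio of 0.57, and one in Hoxb3 (96316801 to 96317200) had 250 and 405, a log2 ratio of 0.53. The genes of paralogue group 3 held 64 of the 112 windows. At the ends of Hoxa3 alone, where no such peak lies, the log2 ratio was 4.10, whereas it was 1.84 at those of Hoxd3 and 0.90 at those of Hoxb3.

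Lower windows were few and lay in 11 genes. Of the 36 windows with a lower ratio in the knockout library, 7 lay in Hoxb3, 7 in Hoxb9, and 4 each in Hoxa3, Hoxd3 and Hoxd8. Hoxb1 had 3, Hoxc8 and Hoxd4 had 2 each, and Hoxa13, Hoxb5 and Hoxc4 had 1 each. The lowest ratio was in Hoxa3, where 3 adjacent windows (52193901 to 52194200) held 29, 39 and 44 wildtype counts and 4, 4 and 3 knockout counts, a log2 ratio of -3.52. Only a few windows further on, from 52194601 to 52195000, a peak of 4 windows held 235 and 412 counts and was higher in the knockout library, with a log2 ratio of 0.64. In Hoxb9, 3 of the lower windows were adjacent (96275101 to 96275400) and held 130 wildtype and 72 knockout counts. The other 4 lay at 96273901 to 96274100 and at 96276001 to 96276200, and the single higher window of the gene (96274701 to 96274800) held 50 and 80.

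CpG content was compared next, since windows with more CpGs were more often higher in the knockout library over the whole table. Hox windows held a mean of 3.91 CpGs, against 2.32 over all listed windows. Hox windows were also mostly higher where CpGs were few, but they differed there in wildtype counts as well. The median wildtype count was 3.5 in Hox windows with 1 CpG and 2 in those with 2 CpGs. Over all listed windows of these classes it was 29 and 37. Since few wildtype counts fix the direction of a listed window, the shares that follow are not like for like. The part that CpG content plays was not tested. With 1 CpG, 144 of 160 Hox windows (90.0%) were higher, against 37.8% of all listed windows of that class. With 2 CpGs the shares were 93.0% and 49.2%, and with 3 they were 96.7% and 71.0%. From 5 CpGs upwards all Hox windows were higher, as were 98.3% or more of all windows. Summed log2 ratios of Hox windows were 1.54 with 1 CpG, 1.91 with 3, 2.45 with 5 and 4.18 with 11 or more, against -0.10, 0.42, 0.69 and 1.04 over all windows of these classes. Median counts of Hox windows with 5 CpGs were 2 in wildtype and 38 in the knockout library, whereas all windows of that class had 68 and 117. With 11 or more CpGs they were 1 and 25, against 12 and 76. Scaled within CpG classes, the number of members called higher was 29.

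**Figure D3:**
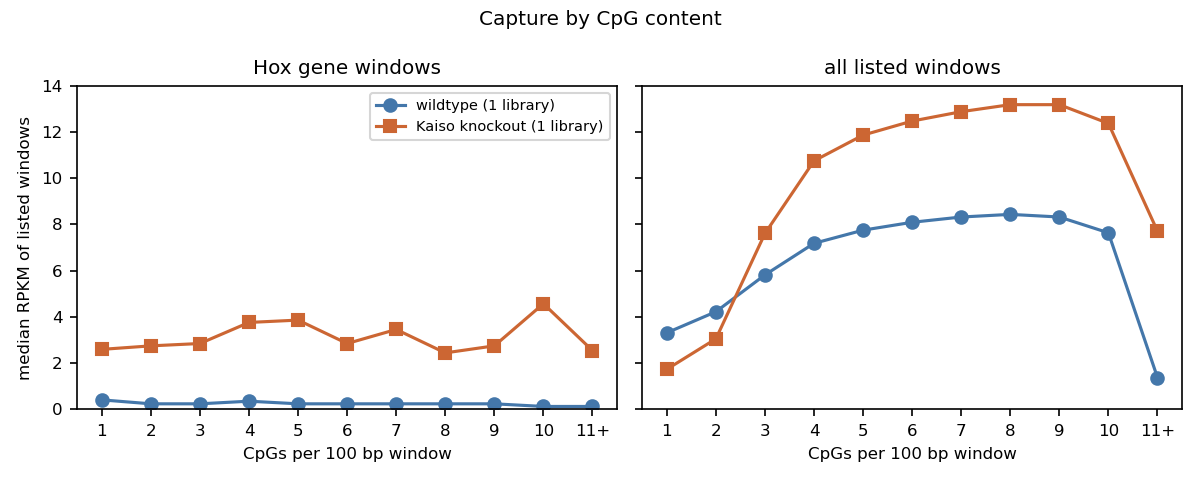
Median RPKM of listed windows by the number of CpGs in the 100 bp window, for the 895 Hox windows on the left and all 2537435 listed windows on the right, in the wildtype library (blue circles) and the knockout library (orange squares). In Hox windows the wildtype median stays under 0.5 RPKM in every class, while over all windows both libraries climb up to 8 CpGs and are lower at 10 and at 11 or more.

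The ratio over listed windows was larger inside the clusters than around them. These ratios are not like for like, because a window with few wildtype reads is listed only when it is higher in the knockout library. Median wildtype and knockout RPKM were 0.228 and 2.94 in member regions. They were 0.456 and 2.03 between members and 3.08 and 3.04 in the flanks. Between the member regions, 226 listed windows had 3432 wildtype and 7787 knockout counts, a log2 ratio of 1.01 (0.90 to 1.13), and 82.7% of them were higher. This value was 1.99 in Hoxa and 2.07 in Hoxc, close to that of their genes, but 0.68 in Hoxb and 1.00 in Hoxd. In the 100 kb on either side of the clusters, 1004 windows had 32468 and 45208 counts, a log2 ratio of 0.31 (0.27 to 0.35), and 60.3% were higher. The 8 flanks ran from 0.11 before Hoxc to 0.53 after Hoxa, around the median of 0.31 of all protein-coding genes.

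**Figure D4:**
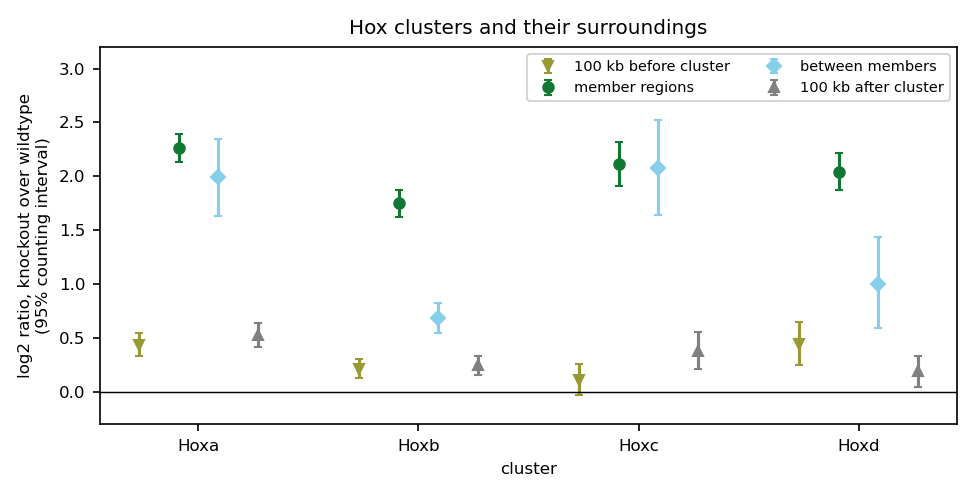
Log2 ratio of knockout over wildtype, with 95% counting intervals, for the summed listed windows of the member regions, the spaces between them, and 100 kb before and after each cluster. Member regions lie at 1.75 or more in every cluster and the flanks at 0.53 or less, and the spaces in Hoxb and Hoxd lie between these levels.

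Of 19 genes and noncoding RNAs within or beside the clusters, 18 were matched and 17 had enough fragments. Of these, 8 were called higher and 0 lower, beside 9.64% and 5.64% of protein-coding genes. Their median log2 ratio was 0.65, and many share their windows with Hox members. Evx1, a homeobox gene past the posterior end of Hoxa, had 7 wildtype and 180 knockout counts, a log2 ratio of 4.52 (2.39 to 7.41). Its relative Evx2, at the same place beside Hoxd, had 113 and 70 counts in 2 windows, a log2 ratio of -0.86 (-1.75 to 0.10). Among microRNAs of the clusters, Mir196a-1 and Mir196a-2, which target Hox messages, had log2 ratios of 3.87 (2.36 to 5.71) and 3.89 (1.71 to 6.80), and Mir10b had 2.23 (1.64 to 2.83). Of the long noncoding RNAs, Hotairm1 at the anterior end of Hoxa had 30 and 197 counts, a log2 ratio of 2.55 (1.36 to 3.74). Hottip, beyond Hoxa13, stood at 0.65 (0.33 to 0.97), and Hotair, in the Hoxc cluster, at -0.05 (-1.30 to 1.21).

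Genes that act with or on Hox genes are set beside the 9.64% higher and 5.64% lower calls among all protein-coding genes. None of 9 Hox cofactors, the Pbx, Meis and Pknox homeodomain partners, was called higher or lower, and their median log2 ratio was 0.10. Of 9 upstream regulators with enough fragments 1 was called higher, Fgf8, a growth factor of the body axis, with 193 wildtype and 743 knockout counts and a log2 ratio of 1.78 (1.32 to 2.28), and the median was 0.40. In the retinoic acid pathway, which switches on anterior Hox genes, 2 of 15 were called higher and 0 lower, with a median of 0.20. These were Crabp2, a retinoic acid carrier, at 2.80 (2.04 to 3.60) and Cyp26c1, a retinoic acid-degrading enzyme, at 1.27 (1.06 to 1.48). Among 23 Polycomb and Trithorax genes, whose products keep Hox genes silent or active, 3 were called higher and 0 lower, with a median of 0.31. Bmi1, a Polycomb subunit, stood out with 19 wildtype and 459 knockout counts, a log2 ratio of 4.43 (3.09 to 6.01), and Cbx8 and Ring1 followed at 1.07 and 1.05. Of the ParaHox genes, a sister cluster of Hox, only Pdx1, a gene of the pancreas, had enough fragments, and it was called lower, with 115 and 51 counts and a log2 ratio of -1.34 (-2.39 to -0.34).

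At gene ends, where 22.5% of protein-coding genes were called higher and 13.3% lower, some of these genes differed more than over their spans. Of 7 upstream regulators with enough fragments there 3 were called higher and 0 lower, namely Fgf8, Wnt3a, a signal of the tail bud, and Cdx1, a homeobox activator of Hox genes. Wnt3a had 61 wildtype and 329 knockout counts, a log2 ratio of 2.26 (1.48 to 3.18), and Cdx1 had 140 and 706, a log2 ratio of 2.17 (1.63 to 2.73). Of 14 Polycomb and Trithorax genes 3 were called higher, Ring1, Cbx8 and Kdm6b, and 1 lower, Kdm6a. Kdm6b, a demethylase of the Polycomb histone mark, had 77 and 1015 counts, a log2 ratio of 3.55 (2.90 to 4.33), and its relative Kdm6a, which lies on the X chromosome, had 72 and 19, a log2 ratio of -2.09 (-3.80 to -0.53). Of 13 retinoic acid genes 1 was called higher, Crabp2, and 1 lower, Aldh1a1, a retinoic acid-forming enzyme, with 83 and 32 counts and a log2 ratio of -1.54 (-2.94 to -0.33). Among 4 cofactors 1 was called higher, Meis2, and 2 lower, among them Pknox1 with 159 and 75 counts. Of 13 cluster neighbours 7 were called higher and 0 lower. The genes named for their ends were chosen after their values were seen.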

How the data were processed

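Methylated DNA of 2 testis libraries, 1 per genotype, was measured by MBD2 capture. Reads were aligned with Bowtie2 2.2.6 to mm10 and edgeR was used, per the submitters' processing notes. The deposited table gives whole-number read counts per 100 bp window, the authors' RPKM, the CpG number and a relative methylation score on an unstated scale, per the file headers. The log2 fold change deposited by the authors is wildtype over knockout and lies 0.13 from the RPKM ratio. The deposited p-value is below 0.05 in each of the 2537435 windows and equals the adjusted one, and each window has a summed count of at least 10. Another 10 columns of values per sample or group were not used here.

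Library sizes were read from the deposited counts and RPKM. Listed window counts, 107010115 in wildtype and 145566310 in the knockout library, exceed the reads because a read falls in several windows, so sums were divided by 4, a choice made here because the sources used here do not give the read extension. Without molecular identifiers, copies made by PCR were counted as reads. A library without a fragment was set to 3 fragments. Gene spans came from GRCm38.p6, the assembly of mm10, and all 38 members matched by symbol. Background genes were read with all overlapping windows, under which the members also gave 32 higher and 1 lower. Members called, or with the farthest interval bound, are named with full values, and up to 4 genes of each other list by interval bound, plus further examples chosen after their values were seen. The members, lists and thresholds were chosen with earlier results of these data known. Calls were tested on simulated fragments drawn from the binomial model behind the intervals. The simulation held no listing by p-value, no reads shared by windows and no variation between libraries, so it does not cover these. Python 3.11.15, numpy 2.4.6, pandas 2.3.3, scipy 1.17.1 and matplotlib 3.10.9 were used, with edgeR 4.0.16 for TMM factors only. Other scalings, region definitions, filters, folds, minimums and divisors were tried. Some genes of the lists are counted there but not reported here by name.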

Additional observations from a re-analysis of the deposited data

How the results depend on the processing

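No paired analysis was possible because each genotype had 1 library, and for the same reason no replicate could be left out. No direction of a cluster or of the family turned under any alternative. The number of members called higher was 32 and lay between 21 and 33, with 21 when windows needed a summed count of at least 30. The number called lower was 1; it was 2 when windows holding 5 or more CpGs were centred on 0 and with median-of-ratios scaling, and 0 for gene spans without the 1 kb, for a deposited p-value of at most 0.001, with a 4-fold threshold and with a divisor of 8. Log2 ratios of the Hoxa, Hoxb, Hoxc and Hoxd clusters moved as follows, in that order. Scaling by autosomal counts gave 1.99, 1.48, 1.84 and 1.77. Centred on windows holding 5 or more CpGs they were 1.60, 1.09, 1.46 and 1.39. Median-of-ratios scaling gave 1.86, 1.35, 1.71 and 1.64, and scaling within CpG classes 1.93, 1.35, 1.71 and 1.70. Windows with a deposited p-value of at most 0.001 gave 3.02, 2.68, 3.43 and 2.63, so that Hoxb was the lowest cluster under each alternative except this one. TMM scaling gave 2.09 for Hoxa, 1.57 for Hoxb and 1.87 for Hoxd, and the authors' scaling 1.88 for Hoxb. A summed count of at least 30 gave 1.59 for Hoxb, 1.61 for Hoxc and 1.82 for Hoxd. Gene ends alone gave 3.07 for Hoxa. Leaving out the paralogue 3 genes, an alternative chosen after seeing the data, gave 3.10 for Hoxa and 2.35 for Hoxd. Posterior minus anterior moved from -0.23 to -0.58 with a summed count of at least 30, to -0.72 without the paralogue 3 genes, and to 0.17 at a deposited p-value of at most 0.001. The scalings change the library ratio by construction, and the cause of the other shifts was not tested. Depth limits the members with few listed windows: a region without a wildtype read allows up to 3 fragments there.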

Other observations

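Other developmental transcription factors with CpG-rich promoters were more mixed than the Hox genes. Of 50 such genes 44 had enough fragments over their spans, of which 14 were called higher and 3 lower in the knockout library, with a median log2 ratio of 0.29, beside 9.64% higher and 5.64% lower among all protein-coding genes. At gene ends 16 of 35 were higher and 5 lower, with a median of 0.80. Irx1, a homeobox gene of the heart and limb, had 8 wildtype and 615 knockout counts in 32 windows, a log2 ratio of 6.10 (4.22 to 9.16). Foxc1, a forkhead gene of the eye and blood vessels, had 0 wildtype and 339 knockout counts and a lower bound of 4.65 on the log2 scale, with an interval from 4.33. Dlx2, a homeobox gene of the forebrain, had 14 and 387 counts, a log2 ratio of 4.62 (3.03 to 6.34), and Irx3 had 38 and 452, a log2 ratio of 3.40 (2.40 to 4.43). Tbx18, a T-box gene of the urinary tract and heart, was lower, with 839 and 301 counts and a log2 ratio of -1.65 (-2.05 to -1.27). Pax1, a gene of the vertebral column, was lower as well, with 98 and 24 counts and a log2 ratio of -2.20 (-3.75 to -0.84).

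A cofactor called higher at its gene ends was near 0 over its whole span. Meis2, a homeodomain partner of Hox proteins, had 10 wildtype and 344 knockout counts at its ends, a log2 ratio of 4.94 (3.36 to 8.33), against 0.05 (-0.03 to 0.13) over the span with 9515 and 11059 counts. It was chosen after its values were seen.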
